A study of Homo sapiens with 6 samples.

Results

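The genes described here encode the subunits of RNA polymerases I, II and III, measured in U937T:PLZF-RARa cells with and without induction of the fusion protein PLZF-RARA. A gene was a member when GEO's platform annotation gave a probe set exactly 1 symbol and that symbol began with POLR1, POLR2 or POLR3, with pseudogenes left out. This rule, which uses no measured value, found 30 genes on 68 probe sets, of 19775 genes named in this way on 54675 probe sets. A gene was represented by its probe set with the highest mean log2 intensity over the 6 arrays. The pseudogenes POLR1HASP and POLR2J4 were left out with their 7 probe sets. POLR2J3 and POLR2M had no probe set naming them alone and were not analysed here.

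U937T:PLZF-RARa is an engineered derivative of the human monocytic leukaemia line U937 that makes PLZF-RARA, a fusion of the repressor ZBTB16 (PLZF) with the retinoic acid receptor RARA, when tetracycline is withdrawn. The 3 induced samples were washed and grown without tetracycline for 48 h, and the 3 uninduced samples were kept in 0.1 ug/ml tetracycline; all were cultured with puromycin and G418, and each was hybridised to its own Affymetrix HG-U133 Plus 2.0 array. All samples come from a single engineered line, the withdrawal of tetracycline goes with induction in every sample, and the labels leave unstated whether the replicates were grown apart. The p-values therefore reflect the spread among these arrays, which may be technical. A bulk array cannot tell fewer cells of a type from less RNA per cell, and it gives each transcript relative to the others on the array.

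Eukaryotic nuclei divide transcription among these 3 enzymes. RNA polymerase I (Pol I) makes the precursor of the large ribosomal RNAs in the nucleolus, RNA polymerase II (Pol II) makes messenger RNA and many noncoding RNAs, and RNA polymerase III (Pol III) makes transfer RNA, the small 5S ribosomal RNA and other short transcripts. Each has its own pair of large catalytic subunits, while a set of small subunits is common to all of them and POLR1C and POLR1D are common to Pol I and Pol III. Pol I and Pol III output sets much of a cell's capacity to build ribosomes and translate, and it is known to follow growth signals and the transcription factor MYC.

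All 30 genes lay above the filter for testing, a log2 intensity of 4, on all 6 arrays, so no fold below is limited by a dim group. Over the 20552 tested probe sets, the correlation between arrays was 0.9963 to 0.9976 within a group and 0.932 to 0.938 between groups. Of 8 myeloid marker genes with a probe set 6 were above the filter on all arrays, among them PTPRC, LYZ and CD4, and MPO and FCGR1A were below it on all; the summed log2 intensity of the 8 was 66.96 to 67.33 in induced and 65.81 to 66.65 in uninduced samples. That sum joins opposite differences, since PTPRC averaged 13.92 in induced and 12.15 in uninduced samples, LYZ 13.13 in induced and 13.98 in uninduced samples, ITGB2 10.68 in induced and 11.37 in uninduced samples, and CSF3R 7.47 in induced and 8.10 in uninduced samples. The markers of T cells (4 of 4) and erythroid cells (2 of 2) were below the filter on every array, and 1 of 3 B cell, 1 of 4 epithelial and 1 of 4 fibroblast markers (PAX5, KRT8 and COL1A1) were above it. The sum over the 4 fibroblast markers was 16.48 to 16.57 in induced and 17.03 to 17.14 in uninduced samples, and COL1A1 alone averaged 7.71 in induced and 8.26 in uninduced samples. RNA integrity was read from the GAPDH control probe sets, whose 3' signal exceeded the 5' signal on the log2 scale by 0.579 ± 0.034 in induced and 0.503 ± 0.025 in uninduced samples (SD, n = 3 each; two-sided exact permutation p = 0.1, the smallest that 3 against 3 allows). The same excess measured on ACTB was 1.41 ± 0.10 in induced and 1.25 ± 0.08 in uninduced samples, and the groups overlapped (SD, n = 3 each; two-sided exact permutation p = 0.2). The part of these marker and integrity values in the results below was not tested.

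Most genes for Pol I and Pol III subunits fell after induction, and most of those for Pol II alone did not pass the test. That majority for Pol II alone depended on the processing. Of the 30 genes, 19 were lower and 5 higher in induced samples, and 6 did not pass (limma, Benjamini-Hochberg adjusted p under 0.05 over all tested probe sets). Over all 9836 genes tested, 66.5% passed, with 30.7% lower and 35.8% higher. At least 2-fold falls were found for 7 of the 30, against 8.82% of all genes tested. The median log2 difference of the 30 genes was -0.66, against 0.017 for all genes tested. The 2 groups did not overlap for 26 of the 30, where 74.4% of all genes tested showed no overlap.

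**Figure D1:**
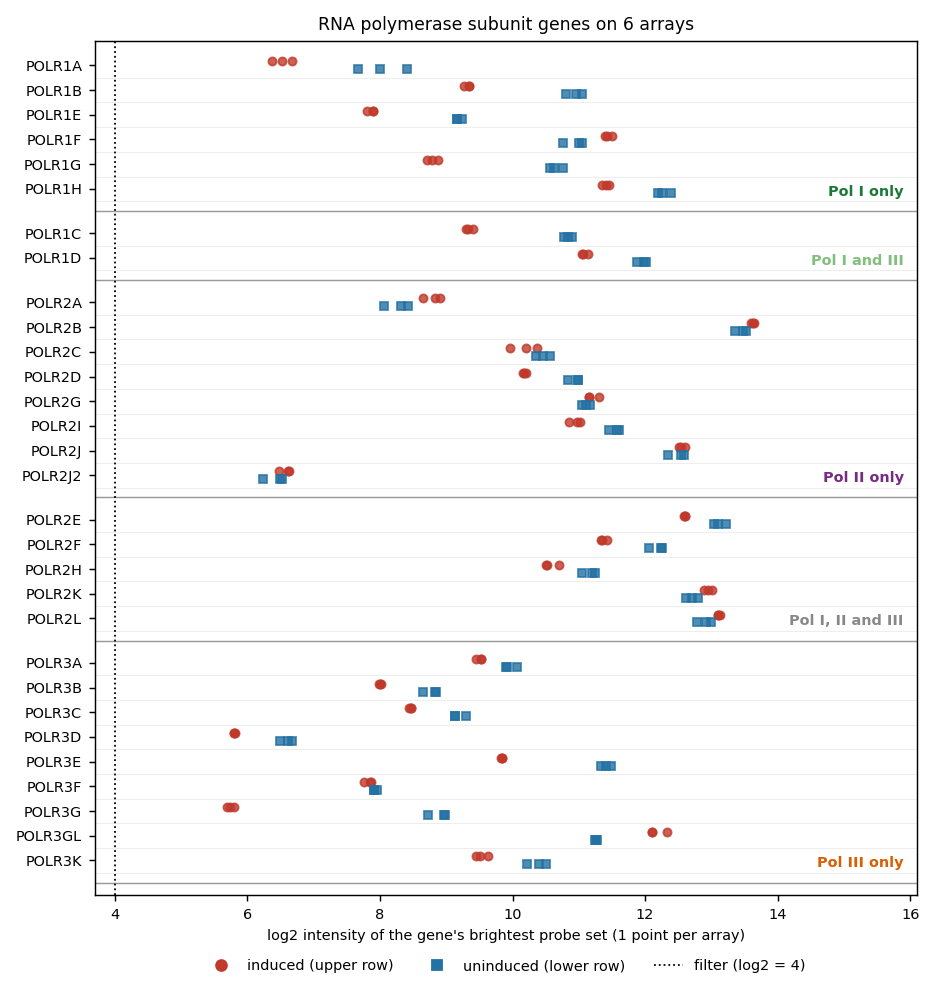
Log2 intensity of the representative probe set of each of the 30 subunit genes, 1 point per array, with induced samples (red circles) above uninduced samples (blue squares) in each row and genes grouped by the enzyme they belong to. The dotted line is the filter at a log2 intensity of 4, and every point lies to its right. Levels of different genes come from different probes and cannot be set against each other.

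Grouped by enzyme, 5 of the 6 genes for subunits of Pol I alone fell and 1 rose, and both genes common to Pol I and Pol III fell. Of the 9 genes for subunits of Pol III alone 7 fell, 1 rose and 1 did not pass. Of the 8 genes of Pol II alone 2 fell, 1 rose and 5 did not pass. The share that fell was 83.3% for Pol I alone and 77.8% for Pol III alone. For Pol II alone it was 25%, near the 30.7% of all genes tested that fell. The 5 genes common to the 3 enzymes were split, with 3 lower and 2 higher, and the higher ones, POLR2K and POLR2L, did not keep that call under several alternatives (0 were higher after median centring). The median log2 difference was -1.41 for Pol I alone, -1.18 for Pol I and III, -0.77 for Pol III alone, -0.52 for the common subunits and 0.079 for Pol II alone. Counting every member gene that belongs to an enzyme, 10 of 13 genes fell for Pol I, 12 of 16 for Pol III and 5 of 13 for Pol II. The enzymes share members in this last count, and the difference between enzymes was described by counts and medians and not tested.

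**Figure D2:**
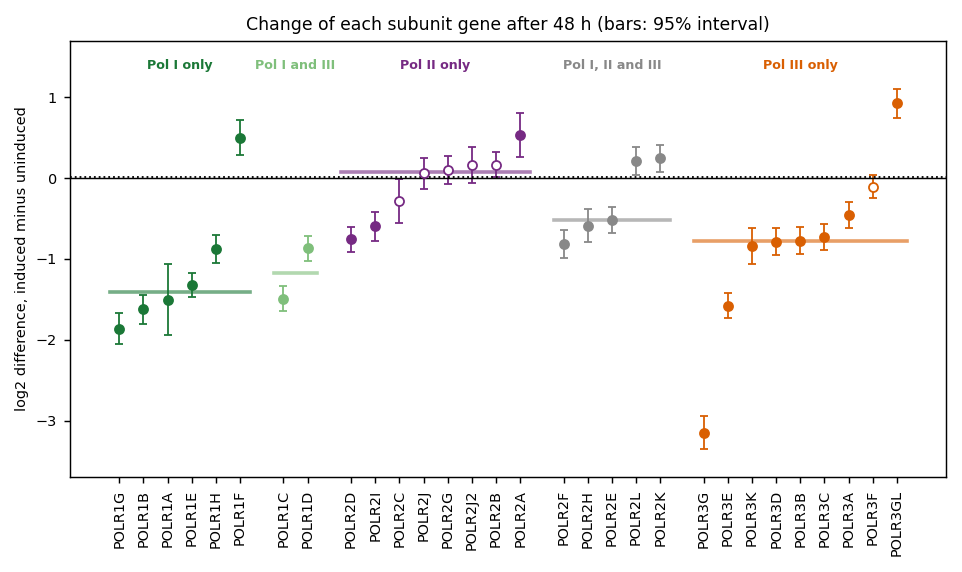
Log2 difference, induced minus uninduced, for each gene (points) with its unadjusted 95% interval from limma (bars); filled points passed the adjusted test and open points did not. Coloured lines are the medians of the 5 groups, from -1.41 for Pol I alone to 0.079 for Pol II alone, and the dotted line is the median of all genes tested, 0.017.

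The group medians were also followed on single arrays. Taking each gene relative to its own mean over the 6 arrays, the median of the 6 Pol I genes was -0.69, -0.61 and -0.76 in induced samples, against 0.69, 0.77 and 0.51 in uninduced samples. For the 9 genes of Pol III alone it was -0.37, -0.35 and -0.39 in induced samples, against 0.44, 0.44 and 0.27 in uninduced samples. Every induced array lay below every uninduced array in these groups. The median of the 8 genes of Pol II alone was 0.012, 0.070 and -0.013 in induced samples and 0.043, 0.017 and -0.144 in uninduced samples, and there the arrays overlapped.

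**Figure D3:**
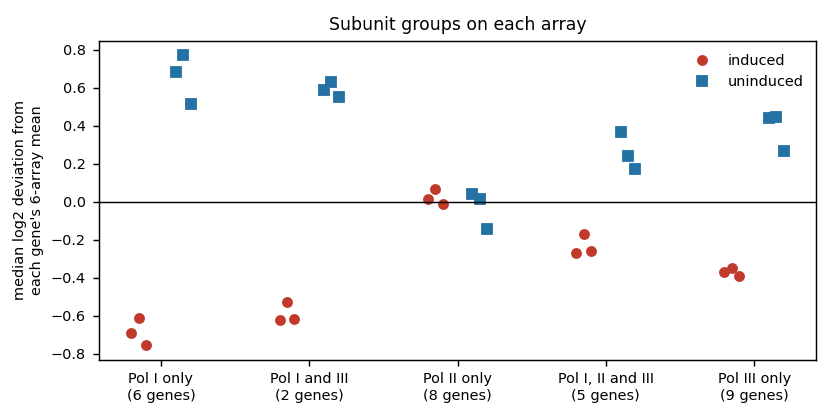
Median over the genes of each group of the log2 deviation from the gene's mean over 6 arrays, with induced arrays (red circles) to the left of uninduced arrays (blue squares). The induced and uninduced arrays stand apart in every group except Pol II alone, where they overlap.

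The catalytic core of Pol I is formed by POLR1A, its largest subunit, and POLR1B, the second largest. POLR1A had log2 intensities of 6.520, 6.666 and 6.366 in induced samples, against 8.0003, 8.404 and 7.664 in uninduced samples. It was 2.84-fold lower (log2 difference -1.51, adjusted p = 3.68e-04), with the widest spread of the 30 genes among uninduced arrays (SD 0.37, n = 3) and no overlap between the groups. POLR1B had 9.34, 9.26 and 9.34 in induced samples, against 10.96, 11.04 and 10.81 in uninduced samples, and was 3.09-fold lower (adjusted p = 5.28e-06).

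POLR1G and POLR1E, known in mouse and human cells as PAF49 and PAF53, form a dimer on Pol I that acts in initiation. POLR1G fell the most of the Pol I genes. Its log2 intensity was 8.78, 8.70 and 8.87 in induced samples, against 10.77, 10.56 and 10.63 in uninduced samples, a 3.64-fold fall (log2 difference -1.87, adjusted p = 3.59e-06) that ranks 232 of 9836 genes from the largest fall. POLR1E was 7.89, 7.90 and 7.80 in induced samples and 9.17, 9.23 and 9.16 in uninduced samples, 2.497-fold lower (adjusted p = 4.67e-06). For both genes every induced array lay below every uninduced array. The 250 bases before the annotated start site of POLR1G (RefSeq, GRCh38.p14, chr19:45406394-45406643, plus strand) are shown because they hold an E-box, CACGTG, the hexamer bound by MYC with MAX and by related factors; it is in capitals:
POLR1G: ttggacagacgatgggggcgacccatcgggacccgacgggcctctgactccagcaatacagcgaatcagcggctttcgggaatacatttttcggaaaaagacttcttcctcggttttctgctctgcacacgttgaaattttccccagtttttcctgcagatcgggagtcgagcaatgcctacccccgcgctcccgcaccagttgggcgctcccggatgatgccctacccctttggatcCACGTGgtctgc

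POLR1H, the subunit that cleaves backtracked RNA, was 11.41 ± 0.05 in induced and 12.28 ± 0.10 in uninduced samples (SD, n = 3 each), 1.83-fold lower (adjusted p = 5.61e-05). POLR1F, which belongs to the stalk of Pol I and in yeast binds the initiation factor Rrn3, was the exception. It had 11.43, 11.50 and 11.39 in induced samples, against 11.00, 11.05 and 10.76 in uninduced samples, and rose 1.42-fold (log2 difference 0.50, adjusted p = 0.00236). Its second tested probe set rose as well, by 0.36 on the log2 scale (adjusted p = 0.00834).

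POLR1C and POLR1D pair to form the assembly platform of both Pol I and Pol III, and variants in either gene are known causes of the craniofacial disorder Treacher Collins syndrome. POLR1C had 9.30, 9.41 and 9.32 in induced samples, against 10.77, 10.89 and 10.84 in uninduced samples, 2.81-fold lower (adjusted p = 3.80e-06). POLR1D was 11.08 ± 0.05 in induced and 11.95 ± 0.07 in uninduced samples (SD, n = 3 each), 1.82-fold lower (adjusted p = 3.56e-05). The fall of POLR1D depended on the probe set: the dimmest of 3 gave -0.34 (adjusted p = 0.00301) and the middle one -0.11 (adjusted p = 0.168), and the mean of the 3 was -0.44.

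Pol III differs from the other enzymes by a trimer of POLR3C, POLR3F and either POLR3G or POLR3GL, which acts in initiation. POLR3G is known to be high in stem cells and tumours, and POLR3GL is the widely expressed alternative. POLR3G had the largest change of the 30 genes. Its log2 intensity was 5.80, 5.73 and 5.69 in induced samples, against 8.96, 8.98 and 8.73 in uninduced samples, and it was 8.87-fold lower (log2 difference -3.15, 95% interval -3.35 to -2.95, adjusted p = 6.92e-07). It ranked 43 of the 9836 genes tested, counted from the largest fall. POLR3GL went the other way, with 12.10, 12.11 and 12.33 in induced samples, against 11.25, 11.27 and 11.25 in uninduced samples, 1.897-fold higher (log2 difference 0.92, adjusted p = 6.01e-05).

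The log2 ratio of POLR3G to POLR3GL within an array, which does not depend on scaling an array by a constant, was computed after their opposite directions had been seen and is given without a test. It was -6.30, -6.38 and -6.64 in induced samples, against -2.29, -2.29 and -2.52 in uninduced samples, a difference of -4.07. The size of the POLR3G fall differed between its probe sets. A dimmer one fell by 1.58 (adjusted p = 1.20e-04), and the third, near the filter in both groups at 4.25 ± 0.16 in induced and 4.51 ± 0.11 in uninduced samples (SD, n = 3 each), differed by -0.26 (adjusted p = 0.0588). The mean over the 3 probe sets gave a change of -1.67. The ratio above uses the POLR3G probe set with the largest fall, so its difference of -4.07 would be smaller in size with either other probe set. POLR3GL had a single probe set.

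**Figure D4:**
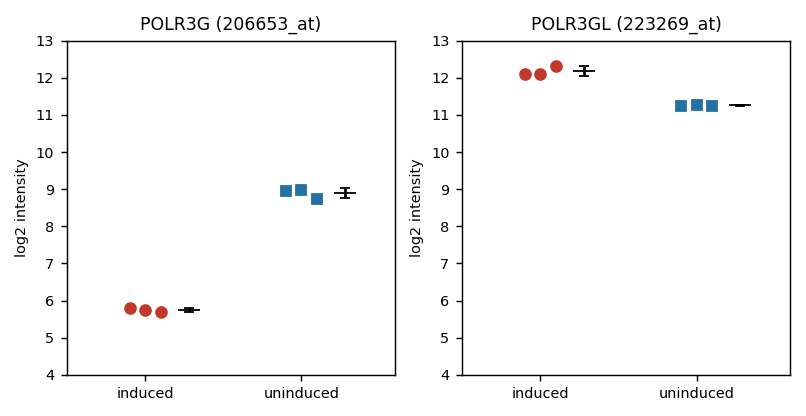
Log2 intensity of POLR3G (left) and POLR3GL (right), alternative subunits of Pol III, on the 3 induced arrays (red circles) and the 3 uninduced arrays (blue squares), with the mean and SD in black. POLR3G is at 5.69 to 5.80 in induced and 8.73 to 8.98 in uninduced samples, and POLR3GL at 12.10 to 12.33 in induced and 11.25 to 11.27 in uninduced samples.

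The other members of the trimer did not move alike. POLR3C was 8.46 ± 0.02 in induced and 9.19 ± 0.10 in uninduced samples (SD, n = 3 each), 1.66-fold lower (adjusted p = 1.05e-04). POLR3F, at 7.82 ± 0.06 in induced and 7.93 ± 0.02 in uninduced samples (SD, n = 3 each), differed by -0.11 (95% interval -0.25 to 0.04, adjusted p = 0.167), and it passed the test after quantile normalization, at -0.20 (adjusted p = 0.0444).

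POLR3D and POLR3E form a second dimer of Pol III that acts in initiation and termination. POLR3E had 9.84, 9.84 and 9.82 in induced samples, against 11.34, 11.41 and 11.49 in uninduced samples, 2.98-fold lower (log2 difference -1.58, adjusted p = 2.81e-06). Its other tested probe set fell by 1.74. POLR3D was 5.81 ± 0.01 in induced and 6.59 ± 0.10 in uninduced samples (SD, n = 3 each), 1.72-fold lower (adjusted p = 6.94e-05). In both genes the groups did not overlap.

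By their brightest probe sets, the catalytic subunits of Pol III had smaller measured falls than those of Pol I, a difference between genes that was not itself tested. POLR3A, its largest subunit, had 9.52, 9.46 and 9.53 in induced samples, against 10.06, 9.91 and 9.91 in uninduced samples, 1.37-fold lower (log2 difference -0.46, 95% interval -0.62 to -0.30, adjusted p = 9.55e-04). The interval of POLR1A's brightest probe set, -1.94 to -1.07, did not overlap it. Another POLR1A probe set differed by -0.97, and its interval, -1.42 to -0.52, did overlap that of POLR3A. The dimmest POLR1A probe set, below the filter on every induced array, differed by -1.89 (95% interval -2.36 to -1.42). POLR3B, the second largest subunit, had 8.01, 7.99 and 7.99 in induced samples, against 8.83, 8.84 and 8.65 in uninduced samples. It was 1.71-fold lower (log2 difference -0.77, 95% interval -0.94 to -0.60, adjusted p = 9.28e-05). That interval did not overlap the interval of POLR1B's brightest probe set, -1.81 to -1.44. The second brightest POLR1B probe set rose by 0.53 (95% interval 0.29 to 0.76), and the dimmer ones fell by 1.65 and 1.96. A second POLR3B probe set lay close to the filter in both groups and did not pass (log2 difference -0.015, adjusted p = 0.839), and the mean of both was -0.39. POLR3K, which cleaves RNA and acts in termination, was 9.53 ± 0.09 in induced and 10.37 ± 0.14 in uninduced samples (SD, n = 3 each), 1.79-fold lower (adjusted p = 2.10e-04).

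Among the Pol III subunit genes, an E-box was found in the promoters of POLR3A (chr10:78029516-78029765, minus strand) and POLR3C (chr1:145823950-145824199, plus strand). The promoter of POLR3GL (chr1:145964440-145964689, plus strand) is shown as that of the Pol III gene that rose; it held none of the motifs searched. The E-box was in 2 of the 9 promoter entries of genes for Pol III alone. POLR3G had no entry. Each line gives the 250 bases before the start site from RefSeq on GRCh38.p14, 5′ to 3′ along the gene, with motif matches in capitals; in POLR3A the first match is the ETS motif CCGGAAGT and the second the E-box:
POLR3A: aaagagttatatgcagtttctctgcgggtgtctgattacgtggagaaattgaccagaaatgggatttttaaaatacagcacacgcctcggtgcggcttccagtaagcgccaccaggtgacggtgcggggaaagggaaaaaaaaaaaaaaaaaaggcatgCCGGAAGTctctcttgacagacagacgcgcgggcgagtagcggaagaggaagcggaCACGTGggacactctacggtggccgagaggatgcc
POLR3C: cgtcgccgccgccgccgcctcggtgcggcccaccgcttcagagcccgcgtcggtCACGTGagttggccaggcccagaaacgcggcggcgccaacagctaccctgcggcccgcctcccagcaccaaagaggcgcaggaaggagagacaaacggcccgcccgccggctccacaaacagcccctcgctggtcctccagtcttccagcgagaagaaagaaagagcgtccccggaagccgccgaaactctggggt
POLR3GL: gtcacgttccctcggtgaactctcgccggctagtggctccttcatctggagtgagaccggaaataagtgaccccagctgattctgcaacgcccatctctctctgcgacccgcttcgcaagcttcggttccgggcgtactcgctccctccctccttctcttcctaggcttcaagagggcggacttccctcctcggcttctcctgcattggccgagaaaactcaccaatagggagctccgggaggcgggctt

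RefSeq's promoter table held 29 entries for 23 of the 30 genes, 6 of which had 2 annotated start sites. The 250 bases before each start were searched on both strands for 5 motifs, and no match of one motif overlapped that of another in these promoters. The E-box CACGTG was found in 3 of 29 promoters (10.3%), those of POLR1G, POLR3A and POLR3C, against 6.34% of all 35116 promoters in the table. It was in 3 of the 21 promoters of genes that fell and 0 of the 4 of genes that rose, and no difference between these was tested. The ETS motif CCGGAAGT was found in 5 (17.2%, against 3.42% of all), in the promoters of POLR1B, POLR1C, POLR2C, POLR2F and POLR3A. The NRF1 motif, the palindrome made of GCGCA and its reverse complement, was found in 4 (13.8%, against 1.03%), of POLR2F, POLR2H and POLR3B; the overlapping windows of POLR2F's start sites count the same match again. AGGTCA, the hexamer recognised by nuclear receptors such as RARA, was found in 3 (10.3%, against 12.1%), of POLR2B, POLR2D and POLR3B, and the TATA box TATAAA in 0 of 29, against 10.7% of all. A match is a run of letters and not a measured binding site.

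Among the subunits of Pol II alone, POLR2A, the largest subunit, which carries the repeated carboxy-terminal domain, rose. It had 8.83, 8.91 and 8.65 in induced samples, against 8.31, 8.43 and 8.07 in uninduced samples, 1.44-fold higher (log2 difference 0.53, 95% interval 0.26 to 0.80, adjusted p = 0.00571). POLR2A rests on 1 tested probe set, since its other 2 lay below the filter. POLR2B, the second largest subunit, was 13.62 ± 0.03 in induced and 13.45 ± 0.09 in uninduced samples (SD, n = 3 each), a difference of 0.17 (95% interval 0.01 to 0.33) that missed the threshold after adjustment (adjusted p = 0.0642). It passed with quantile normalization (0.14, adjusted p = 0.04998), with a trended and robust variance model (adjusted p = 0.0278) and with array weights (0.13, adjusted p = 0.0464). The largest subunits of the 3 enzymes thus differed in direction, with POLR1A and POLR3A lower and POLR2A higher.

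POLR2D and POLR2G form the stalk of Pol II. POLR2D had 10.20, 10.16 and 10.18 in induced samples, against 10.98, 10.99 and 10.84 in uninduced samples, 1.69-fold lower (log2 difference -0.76, adjusted p = 6.91e-05). POLR2G, its partner, was 11.21 ± 0.09 in induced and 11.11 ± 0.07 in uninduced samples (SD, n = 3 each), a difference of 0.099 (95% interval -0.07 to 0.27, adjusted p = 0.270). The intervals of the partners do not overlap, as POLR2D's runs from -0.92 to -0.60. POLR2I, the subunit for transcript fidelity, was 10.95 ± 0.09 in induced and 11.54 ± 0.08 in uninduced samples (SD, n = 3 each), 1.51-fold lower (adjusted p = 4.07e-04).

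POLR2C and POLR2J are the Pol II counterparts of POLR1C and POLR1D. POLR2C was 10.18 ± 0.20 in induced and 10.46 ± 0.11 in uninduced samples (SD, n = 3 each), a difference of -0.28 (95% interval -0.55 to -0.01, adjusted p = 0.0667). Its call depended on the processing: it passed in 6 of 14 alternatives, among them without induced replicate 2 (-0.37, adjusted p = 0.0277) and after median centring (-0.36, adjusted p = 0.0163). POLR2J was 12.55 ± 0.05 in induced and 12.49 ± 0.13 in uninduced samples (SD, n = 3 each; difference 0.060, 95% interval -0.13 to 0.25, adjusted p = 0.542). POLR2J2, a near-identical copy of POLR2J, differed by 0.16 (95% interval -0.06 to 0.38, adjusted p = 0.180). Signal of these copies may be shared between their probe sets, so their values are uncertain. The interval of POLR1C, -1.65 to -1.34, did not overlap that of POLR2C.

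Of the subunits common to the 3 enzymes, POLR2E, POLR2F and POLR2H fell. POLR2F had 11.42, 11.34 and 11.35 in induced samples, against 12.25, 12.24 and 12.06 in uninduced samples, 1.76-fold lower (adjusted p = 8.26e-05). POLR2H was 10.57 ± 0.11 in induced and 11.16 ± 0.11 in uninduced samples (SD, n = 3 each), 1.505-fold lower (adjusted p = 8.72e-04). POLR2E was 12.60 ± 0.01 in induced and 13.12 ± 0.10 in uninduced samples (SD, n = 3 each), 1.43-fold lower (adjusted p = 5.19e-04). All of their induced arrays lay below all of their uninduced arrays. The small zinc-binding subunits POLR2K and POLR2L were higher by 0.24 and 0.21 on the log2 scale (adjusted p = 0.0210 and 0.0382), the smallest changes among the genes that passed.

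Those 2 rises were the least stable calls. POLR2K was 12.95 ± 0.06 in induced and 12.70 ± 0.09 in uninduced samples (SD, n = 3 each). It did not pass after median centring (0.17, adjusted p = 0.0577), without uninduced replicate 2 (adjusted p = 0.0565), without induced replicate 1 (0.0692) or without induced replicate 3 (0.0631), and its second probe set differed by 0.067 (adjusted p = 0.413). POLR2L was 13.11 ± 0.02 in induced and 12.90 ± 0.11 in uninduced samples (SD, n = 3 each). It did not pass after median centring (0.13, adjusted p = 0.0795), with a replicate block (adjusted p = 0.0654), with no filter (0.0598) or without any single array other than uninduced replicate 1 (0.0563 to 0.108). Its dimmer probe set fell by 0.90 (adjusted p = 0.00433), so the direction of POLR2L is not settled.

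Of the 30 genes 18 had over 1 tested probe set, and 12 of these gave the same call with every tested probe set. Calls went both ways for POLR1B and POLR2L. For POLR1B 3 of 4 probe sets fell, by 1.63, 1.65 and 1.96 on the log2 scale, and the one whose _x_at suffix marks probes that can bind several transcripts rose by 0.53 (adjusted p = 0.00301). POLR1D, POLR2K, POLR3B and POLR3G mixed called and uncalled probe sets. Of the 55 tested probe sets of the 30 genes 35 were lower and 7 higher, where 62.5% of all tested probe sets passed, 27.9% lower and 34.6% higher. By enzyme, 12 of 15 probe sets fell for Pol I alone, 11 of 15 for Pol III alone and 3 of 12 for Pol II alone.

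**Figure D5:**
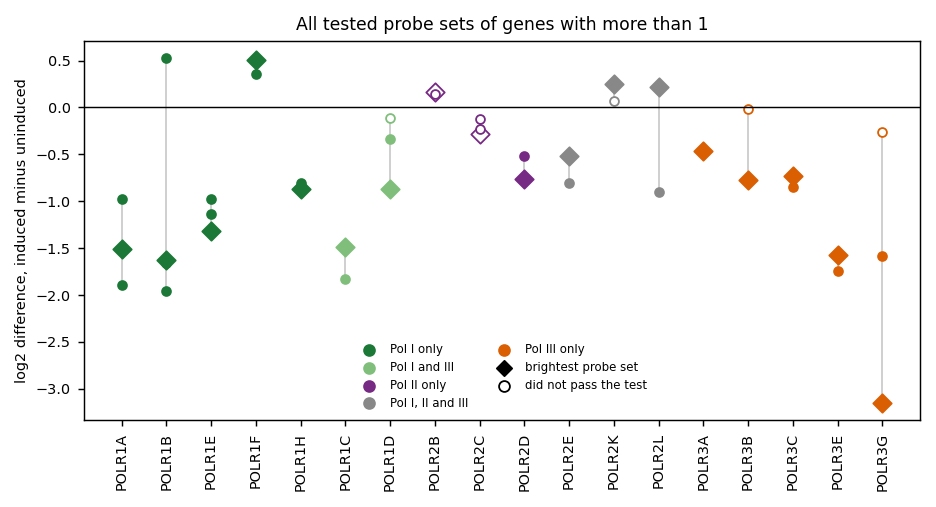
Log2 difference, induced minus uninduced, of every tested probe set for the 18 genes with over 1; the diamond is the brightest probe set, which represents the gene, and open symbols did not pass the adjusted test. POLR1B and POLR2L have called probe sets on either side of 0, and for POLR3G the differences run from -3.15 to -0.26.

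Factors that work with each enzyme were counted from lists chosen with earlier results of these data known, and each count is read against the 30.7% of all genes tested that fell and the 35.8% that rose. Of 7 tested initiation and termination factors of Pol I 3 fell and 2 rose, with a median log2 difference of -0.10, which is near those shares. TAF1A and TAF1B, both subunits of the Pol I promoter factor SL1, moved in opposite directions: TAF1A was 2.19-fold lower (adjusted p = 1.29e-04) and TAF1B 1.62-fold higher (adjusted p = 0.00238). RRN3, which recruits Pol I to the promoter, was 1.24-fold lower (adjusted p = 0.00400), and TTF1, the termination factor, 1.22-fold higher (adjusted p = 0.0172).

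Of 18 tested genes listed as initiation factors and regulators of Pol III 7 fell and 2 rose, with a median of -0.16. The list holds CRCP, a Pol III subunit whose symbol falls outside the rule for members. CRCP did not pass (log2 difference -0.075, limma adjusted p = 0.410) and is not in the subunit counts above. GTF3A (TFIIIA), the factor for 5S ribosomal RNA genes, was 12.02 ± 0.01 in induced and 13.47 ± 0.08 in uninduced samples (SD, n = 3 each), 2.73-fold lower (adjusted p = 4.20e-06). GTF3C4, a subunit of TFIIIC, was 2.03-fold lower and SSB (La), which binds the ends of Pol III transcripts, 1.52-fold lower, while SNAPC3, of the complex for small nuclear RNA promoters, was 1.87-fold higher (adjusted p = 4.08e-04, 4.39e-04 and 4.13e-05). The share of the list that fell, 7 of 18, stands beside 30.7% of all genes.

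The general factors of Pol II went both ways, with 13 of 31 lower, 9 higher and a median of 0.017, beside 30.7% lower and 35.8% higher among all genes tested. TAF4B, a tissue-restricted TFIID subunit, was 4.58-fold lower (adjusted p = 2.36e-06) and GTF2H4, of TFIIH, 1.898-fold lower (adjusted p = 8.88e-05), while TAF9B and GTF2A1 were 1.79-fold and 1.68-fold higher (adjusted p = 5.19e-05 and 7.79e-05). Of 28 pausing and elongation factors 12 rose and 5 fell, with a median of 0.22, beside 35.8% higher and 30.7% lower among all genes tested. The 4 named for the smallest adjusted p were AFF4, a scaffold of the super elongation complex (2.57-fold, adjusted p = 1.27e-05), HEXIM1, an inhibitor of the elongation kinase P-TEFb (1.899-fold, adjusted p = 2.02e-05), ELOA, an elongin subunit (1.68-fold, adjusted p = 4.75e-05), and AFF1 (1.79-fold, adjusted p = 1.07e-04), each higher in induced samples.

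Of 15 tested factors for polymerase assembly and import 8 fell and 0 rose, with a median of -0.33. RUVBL1 and RUVBL2, the ATPases of the R2TP chaperone complex, were 2.81-fold and 2.06-fold lower (adjusted p = 6.22e-06 and 2.26e-05), URI1, a prefoldin-like partner of R2TP, was 1.92-fold lower (adjusted p = 7.29e-05) and the GTPase GPN2 1.52-fold lower (adjusted p = 0.00124). The share of these factors that fell, 8 of 15, stands beside 30.7% of all genes tested.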

How the data were processed

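The deposited table holds linear probe set intensities for 6 arrays, for which the submitters' processing notes name GCRMA. That method corrects background from probe sequence, normalizes and summarises probes; the sources used here do not state its version or any later scaling. The 6 values under 1 were set to 1 before taking log2. Of 54675 probe sets 62 controls were left out, and 20552 with log2 above 4 on at least 3 arrays were tested. Symbols came from GEO's platform annotation.

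Groups came from the sample titles. They were compared by limma 3.58.1 (R 4.3.3, lmFit and eBayes, two-sided) without covariates, and p-values were adjusted by Benjamini-Hochberg across every tested probe set, with a threshold of 0.05. Folds are antilogs of log2 differences. An exact permutation test was used for the RNA integrity values. The fit was tested on simulated data. Members and gene lists were chosen with earlier results of these data known. All 30 members are named, and from each factor list up to 4 genes with the smallest adjusted p among those that passed. CRCP is named in addition, as a Pol III subunit. Alternatives were no filter, a filter at 6, quantile normalization, median centring, array weights, trend and robust options in eBayes, a replicate block, the mean over probe sets, omission of _x_at and _s_at probe sets, and omission of each array. The number of arrays limits the precision. Plots were made with matplotlib 3.10.9 (Python 3.11.15).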

Additional observations from a re-analysis of the deposited data

How the results depend on the processing

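Of the 30 genes 23 kept their direction and side of the threshold under every alternative that gave a value, of 15; the exceptions were POLR2B, POLR2C, POLR2J, POLR2J2, POLR2K, POLR2L and POLR3F. The count of lower genes was 19 to 20 when single arrays were left out, 19 with the replicate block, 20 after median centring and 21 after quantile normalization. These scalings moved the median of all genes tested by -0.079 and -0.067, to -0.062 and -0.049. The number of higher genes was 3 after median centring and with _x_at and _s_at probe sets omitted, and 3 to 5 without single arrays. Among the common subunits the higher calls numbered 1 with no filter, with the replicate block and with the mean over probe sets, 0 after median centring and without _x_at and _s_at probe sets, and 0 to 2 without single arrays. For Pol II alone 2 genes were higher after quantile normalization, with trended and robust eBayes and with array weights, and 1 was lower without _x_at and _s_at probe sets. POLR2B and POLR2C both passed with quantile normalization, with trended and robust eBayes and with array weights. Most of the 8 genes of Pol II alone were then called, with 3 lower and 2 higher after quantile normalization. After median centring the median log2 differences were -1.26 for Pol I and III, 3.2e-05 for Pol II alone, -0.60 for the common subunits and -0.85 for Pol III alone, and after quantile normalization -0.85 for Pol III alone. The mean over probe sets gave -1.16 for Pol I alone and -1.05 for Pol I and III, and leaving out _x_at and _s_at probe sets, which left 23 of the genes, gave -0.70 for the common subunits. Without single arrays the median of Pol I alone ran from -1.51 to -1.31. Directions turned, with no call, for POLR2J2 after quantile normalization (-0.012) and for POLR2J after median centring (-0.020), with array weights (-0.0079) and without uninduced replicate 3 (-0.011, in a range of -0.011 to 0.11 without single arrays); POLR2L turned to -0.34 with the mean over probe sets (adjusted p = 0.0292) and -0.90 without _x_at and _s_at probe sets (adjusted p = 0.00497), both past the threshold. Where not given by the alternative's construction, the cause was not tested. The labels number the replicates without saying what the numbers share, and the deviations of same-numbered arrays from their group means correlated at r = -0.173, 0.00046 and 0.180, with replicates 1 and 2 correlating better with another number, so the block was kept as an alternative; among the 30 genes it changed the call of POLR2L.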

Other observations

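Mitochondria transcribe their genome with their own single-subunit polymerase. Of 9 tested genes of that machinery 7 were lower and 0 higher in induced samples, with a median log2 difference of -0.74, beside 30.7% lower over all genes tested. POLRMT, the mitochondrial RNA polymerase, was 7.12 ± 0.24 in induced and 9.19 ± 0.10 in uninduced samples (SD, n = 3 each), 4.22-fold lower (limma, adjusted p = 1.51e-05). The initiation factor TFB2M was 2.63-fold lower (adjusted p = 7.22e-06), MTERF3 1.82-fold lower (adjusted p = 2.84e-05) and TFAM, which packages mitochondrial DNA and acts in initiation, 1.63-fold lower (adjusted p = 4.52e-05).

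Of 13 tested kinases, phosphatases and related factors of the carboxy-terminal domain of POLR2A 6 were higher and 2 lower, with a median of 0.18, beside 35.8% higher over all genes tested. CTDSPL2 was 1.72-fold, CTDSPL 1.56-fold, RPRD2 1.65-fold and the kinase CDK13 1.79-fold higher (limma, adjusted p = 5.65e-05, 1.68e-04, 1.78e-04 and 2.47e-04).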
